A study of Mus musculus with 11 samples.

Results

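The transcripts of the mitochondrial genome were described in alveolar macrophages of newborn mice, as the 37 genes whose symbol starts with mt- among 57180 Ensembl identifiers in the deposited count table. They comprise 13 mRNAs, 2 rRNAs and 22 tRNAs. Alveolar macrophages are the resident phagocytes of the air spaces. The 11 bulk RNA-seq libraries came from wild-type C57BL/6 pups of both sexes at postnatal day 7, with the cells sorted from lung tissue by flow cytometry. Hyperoxia pups had breathed 95% oxygen between postnatal days 1 and 5, and normoxia pups had not. There were 3 normoxia male libraries (NM1 to NM3), 3 normoxia female (NF1 to NF3), 2 hyperoxia male (HM2 and HM3) and 3 hyperoxia female (HF1 to HF3). Nothing in the labels ties a replicate to an animal, a pool or a litter, so the spread that the tests below rest on may be technical in part.

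Mitochondria keep a small circular genome of their own, which is transcribed as long RNAs from both strands by the polymerase Polrmt with the factors Tfam and Tfb2m. The long RNAs are cut at the tRNAs that lie between the other genes, which releases mRNAs for subunits of respiratory complexes I, III, IV and V, the rRNAs of the mitochondrial ribosome, and the tRNAs themselves. All but 1 of the mRNAs come from the heavy-strand transcript, and mt-Nd6 comes from the light-strand transcript. All other respiratory chain subunits, and all proteins of the mitochondrial ribosome, are encoded in the nucleus.

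Totals ran from 18087948 to 32579468 counts per library. In 4 libraries (NM3, NF3, HF2 and HF3) 33158 to 35530 identifiers had a count, against 26856 to 30173 in the other 7. The identifier with most counts held 5.27% to 20.8% of a library, and in HF2 that identifier was mt-Rnr2. All 14 alveolar macrophage markers were detected. Their summed level was 4376 to 6452 CPM (counts per 1000000 counts of the library) in normoxia and 5019 to 6063 in hyperoxia. Some single markers differed more than the sum. Fabp1 was 40.7 to 59.2 CPM in normoxia and 6.78 to 17.1 in hyperoxia, and Krt79 49.0 to 80.5 and 19.8 to 44.1. Cidec was 87.3 to 141 and 37.8 to 65.8, and Ear1 241 to 294 and 119 to 167. Every other marker of the 14 overlapped between the oxygen groups. Marco was 151 to 361 and 232 to 480, Mrc1 821 to 1807 and 1215 to 1778, and Plet1 530 to 1031 and 816 to 978. Siglecf, Itgax, Chil3, Fabp4, Ear2, Pparg and Car4 also overlapped. Among the genes tested below, 2.16% had no overlap between the oxygen groups, on CPM scaled by TMM factors. Summed neutrophil markers (7 genes, 1 of them at 0 in every library) were 13.6 to 25.6 CPM in normoxia and 38.7 to 45.6 in hyperoxia. The largest part of that sum was Mmp8, at 6.52 to 14.9 and 22.1 to 25.7. S100a8 (3.14 to 8.32 and 6.83 to 14.2), S100a9, Retnlg, Cxcr2 and Camp overlapped between the oxygen groups. Summed monocyte markers (8 genes, none at 0 throughout) were 619 to 2251 CPM in normoxia and 1346 to 2541 in hyperoxia. Most of that sum was Fn1, at 582 to 2203 and 1278 to 2391. The part of these other cells in any result below was not tested.

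Several mitochondrial mRNAs have copies in the nuclear genome, which were set beside them because a read from identical sequence can be assigned to either. By BLAST against GENCODE M21 transcripts (GRCm38), 17 pseudogenes matched 11 of the 37 genes at 90% identity or more over at least 100 bases. The copy Gm28661 is identical to mt-Co2, the mRNA of cytochrome c oxidase subunit II, over 681 of its 684 bases, and Gm13341 is a diverged copy of the same mRNA at 95.9% identity. The window shown covers bases 380 to 439 of the mt-Co2 transcript, with letters that differ from mt-Co2 in capitals.
mt-Co2: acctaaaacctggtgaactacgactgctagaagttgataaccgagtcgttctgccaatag
Gm28661: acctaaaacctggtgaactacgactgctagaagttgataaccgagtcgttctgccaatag
Gm13341: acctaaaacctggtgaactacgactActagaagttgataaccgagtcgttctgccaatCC

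Gm28661 matched mt-Co2 at every base of the window and Gm13341 differed at 3. The identical copy held 116577 counts summed over the 11 libraries, more than the 43201 of mt-Co2 itself, and the diverged copy held 48. In 3 further pairs at 100% identity over nearly the whole gene, the copy also held more counts than the member. Gm10925 held 173472 counts against 136995 for mt-Atp6, Gm28437 held 84685 against 69429 for mt-Co3, and Gm10222 held 22163 against 7981 for mt-Nd4l. Gm28439 is identical to 876 of the 1378 bases of mt-Nd4 and held 114 counts. The remaining copies were partial or differed from their member at 1 base or more, and they held few counts. Gm28438 matches 99.1% of mt-Nd3 with 1 mismatch over 345 bases, and held 99 counts against 24084 for mt-Nd3. Gm13340 matches the whole of mt-Co1 at 97.6% identity and held 10 to 38 counts per library. Gm29216 matches 31.3% of mt-Co1 at 99.8% identity and ranged from 11 counts (NM1) to 498 (HF2). How the upstream counting divided reads that fit more than 1 gene is not given in the sources used here.

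The split of counts between a member and its identical copy differed widely from library to library. The share on the copy was 37.8% to 69.4% for Gm10925, 59.4% to 81.1% for Gm28661, 33.9% to 65.4% for Gm28437 and 47.3% to 96.8% for Gm10222. For Gm10925 the 3 hyperoxia female libraries were the highest (65.6%, 67.3% and 69.4%) and the hyperoxia male libraries were low (41.7% and 37.8%). The counts of mt-Atp6, mt-Co2, mt-Co3 and mt-Nd4l are therefore given below both as deposited and with their copies added, since reads of the pairs cannot be told apart.

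**Figure D1:**
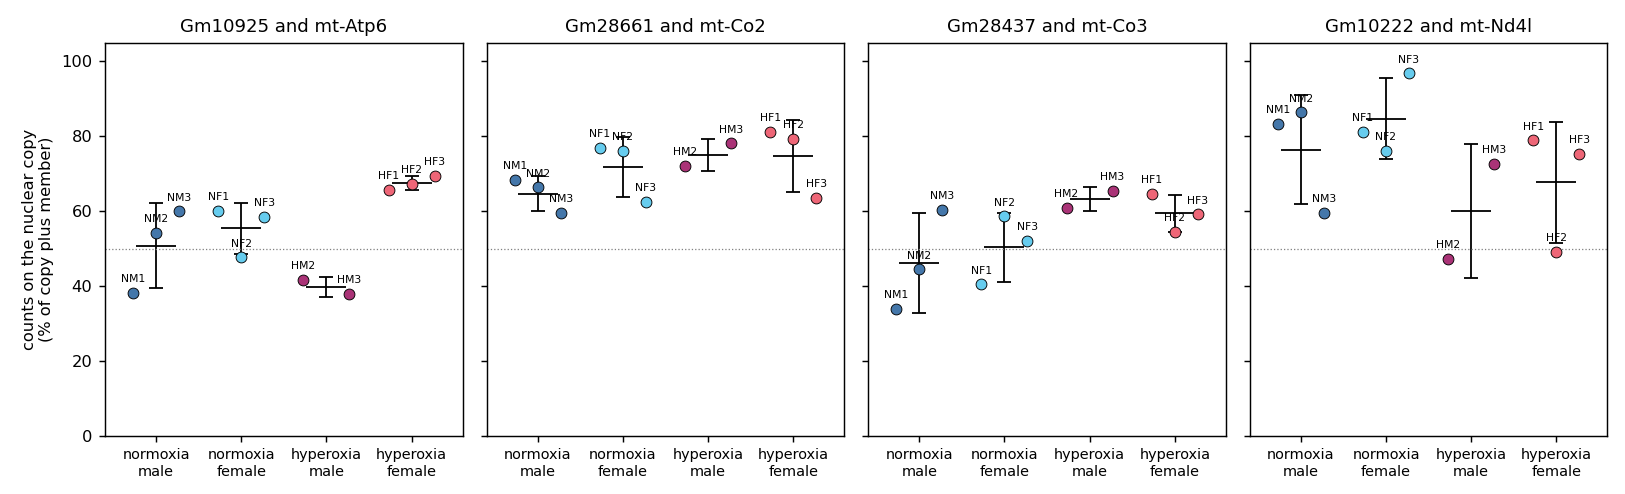
Share of counts assigned to the nuclear copy, in percent of copy plus mitochondrial gene, for the 4 pairs at 100% identity over nearly the whole mitochondrial gene. Points are libraries by group, bars show mean and SD, and the dotted line marks 50%. The share on Gm10222 ran from 47.3% in HM2 to 96.8% in NF3.

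All 37 mitochondrial genes together took 5.77% to 9.45% of a library's counts. In normoxia the lowest, median and highest shares were 6.37%, 7.37% and 8.88%. The hyperoxia libraries stood at 5.77% (HM2), 9.45% (HM3), 8.22% (HF1), 8.99% (HF2) and 8.54% (HF3). The lowest and the highest of all 11 libraries were thus the 2 hyperoxia male libraries, and the oxygen groups overlapped. Hyperoxia exceeded normoxia by 0.562 percentage points averaged over the sexes (exact permutation test within sex, two-sided, p = 0.505, adjusted p = 0.585 over the 4 shares tested). In bulk RNA, fewer cells of a type and less RNA per cell cannot be told apart. Against nuclear protein-coding counts alone, the difference turned to -0.141 percentage points, and without HM3 it was -0.356.

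The rRNAs carried most of this share. mt-Rnr1 and mt-Rnr2, the small and large subunit rRNAs of the mitochondrial ribosome, together made up 88.8% to 92.0% of the mitochondrial counts. Their share of all counts was 6.60 ± 1.19% in normoxia males (SD, n = 3), 7.11 ± 1.12% in normoxia females (n = 3), 6.88 ± 2.27% in hyperoxia males (n = 2) and 7.71 ± 0.266% in hyperoxia females (n = 3). The hyperoxia minus normoxia difference of 0.438 percentage points was within the spread between libraries (exact permutation p = 0.585, adjusted p = 0.585). It turned negative without the largest nuclear identifier in the denominator (-0.0234), against nuclear protein-coding counts (-0.223) and without HM3 (-0.365).

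The count ratio of mt-Rnr2 to mt-Rnr1 was 2.08 to 2.18 in the 6 normoxia libraries. In hyperoxia it was 2.48 (HM2), 2.15 (HM3), 2.45 (HF1), 1.95 (HF2) and 2.23 (HF3), so the hyperoxia libraries lay on both sides of the normoxia range. The log2 ratio differed by 0.08 (exact permutation p = 0.24, adjusted p = 0.245 over 5 ratios).

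The 13 mRNAs took 0.498% to 1.01% of counts. The lowest, median and highest shares were 0.518%, 0.665% and 0.864% in normoxia. In hyperoxia they were 0.498% (HM2), 0.957% (HM3), 0.769% (HF1), 1.01% (HF2) and 0.830% (HF3). The mean difference was 0.124 percentage points (exact permutation p = 0.27, adjusted p = 0.585), and HM2 lay below every normoxia library. With the nuclear copies added it was 0.155 percentage points.

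Per kilobase, rRNA counts exceeded mRNA counts 35.5-fold to 52.2-fold as deposited. The plain count ratio of rRNA to mRNA had a lowest, median and highest value of 9.27, 10.2 and 11.6 in normoxia. It was 10.6 (HM2), 8.87 (HM3), 9.68 (HF1), 7.90 (HF2) and 9.29 (HF3) in hyperoxia. The log2 ratio differed by -0.14, hyperoxia minus normoxia, with overlapping groups (exact permutation p = 0.11, adjusted p = 0.245). As deposited this log2 ratio was 3.21 to 3.54 in normoxia and 2.98 to 3.40 in hyperoxia. With the nuclear copies added it was lower, at 2.98 to 3.34 and 2.74 to 3.17.

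**Figure D2:**
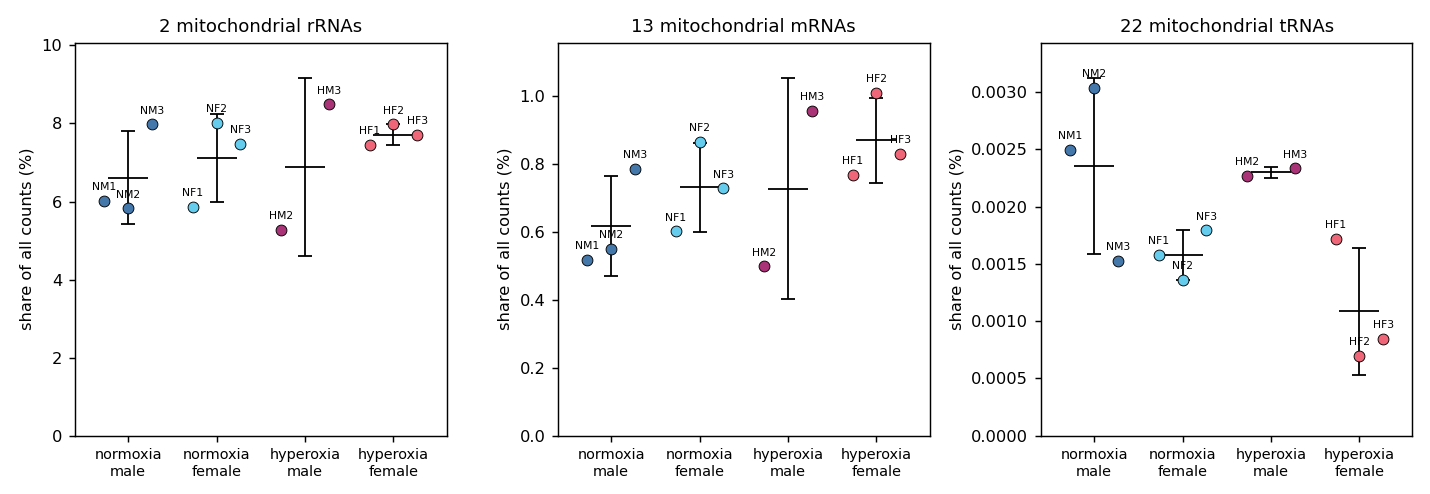
Share of all counts, in percent, held by the 2 rRNAs, 13 mRNAs and 22 tRNAs in each library. Points are libraries by group, and bars show mean and SD. The 2 hyperoxia male libraries lie far apart for rRNAs (5.27% and 8.49%) and mRNAs (0.498% and 0.957%).

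Shares of mRNA and rRNA went up and down together across the 11 libraries (Pearson r = 0.936, permutation p = 6e-05, adjusted p = 0.00024; Spearman rho = 0.927, permutation p = 8e-05, adjusted p = 0.00024; 6 values adjusted together). Both shares have the same library total as denominator. Without HM2 and NM1, the libraries farthest from the median mRNA share, r was 0.902. In the 7 libraries with fewer genes detected r was 0.982. The tRNA and mRNA shares ran in opposite directions, without passing the adjustment (r = -0.653, permutation p = 0.0308, adjusted p = 0.0503; rho = -0.655, permutation p = 0.0336, adjusted p = 0.0503), and r was -0.557 without the same 2 libraries. For rRNA and tRNA shares r was -0.555 (permutation p = 0.0792, adjusted p = 0.095) and rho -0.50 (permutation p = 0.121, adjusted p = 0.121), with r = -0.308 without HM2 and NM2.

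Levels of the 13 mRNAs were compared per length, as counts per kilobase in percent of the sum over the 13. mt-Co1, the catalytic subunit of cytochrome c oxidase (complex IV), ranked highest in each of the 11 libraries as deposited (22.8 ± 1.64%, SD, n = 11). mt-Cytb, the cytochrome b of complex III, followed at 12.9 ± 0.977%. The complex V subunits mt-Atp8 (11.3 ± 1.11%) and mt-Atp6 (10.1 ± 2.45%) and the complex I subunit mt-Nd1 (9.79 ± 0.328%) came next. mt-Atp8 exceeded mt-Atp6 in 8 of 11 libraries and mt-Atp6 exceeded mt-Nd1 in 6 of 11, so these neighbours did not differ beyond their spread.

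Of the other complex I subunits, mt-Nd5 stood at 7.99 ± 0.575%, mt-Nd4 at 6.43 ± 0.353%, mt-Nd2 at 4.64 ± 0.306% and mt-Nd3 at 3.65 ± 1.24%. mt-Nd3 was the most variable of these, at 6.19% in NM1 and 5.63% in HM2 but 2.36% to 4.10% in the others. The complex IV subunits mt-Co3 (4.52 ± 1.23%) and mt-Co2 (3.20 ± 0.748%) ranked low as deposited. mt-Nd6 (1.35 ± 0.251%) and mt-Nd4l (1.29 ± 0.679%) were last, and their ranges overlapped.

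Adding the copies moved 4 genes up. mt-Atp6 came to 17.4 ± 2.35% (SD, n = 11), level with mt-Co1 at 17.7 ± 0.973%, and mt-Co1 was the higher of the pair in 4 of 11 libraries. mt-Co2 came to 8.68 ± 0.668%, mt-Co3 to 7.55 ± 0.698% and mt-Nd4l to 3.87 ± 0.399%. mt-Nd6 was then last in every library (1.04 ± 0.164%).

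Ratios between genes of one complex also varied less between libraries with the copies added. Per kilobase, the ratio of mt-Co2 to mt-Co1 was 0.090 to 0.187 as deposited, with a coefficient of variation of 23.4%, and 0.461 to 0.532 with the copy added, with 4.98%. The ratio of mt-Nd4l to mt-Nd4 was 0.026 to 0.419 as deposited (coefficient of variation 53.9%) and 0.618 to 0.914 with the copy added (10.8%). For mt-Co3 to mt-Co1 the coefficient of variation was 34.6% as deposited and 13.2% with the copy added.

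**Figure D3:**
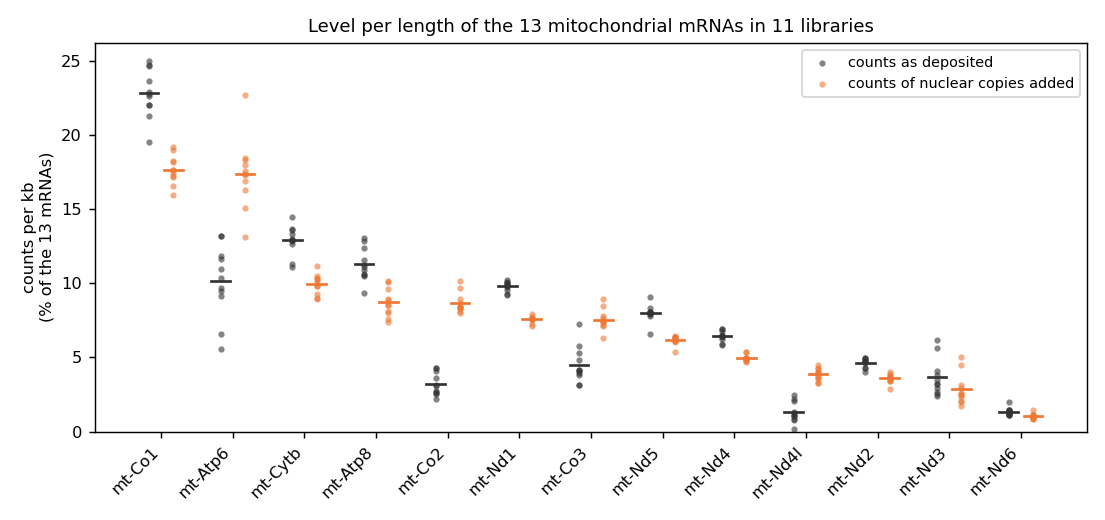
Counts per kilobase of the 13 mRNAs, in percent of their sum, in the 11 libraries as deposited and with the counts of nuclear copies added. Points are libraries and bars are means. mt-Co2 moved from 3.20% to 8.68%, and mt-Nd6 is the lowest with the copies added.

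mt-Atp8 and mt-Atp6 are read from a single mRNA with overlapping frames, as are mt-Nd4l and mt-Nd4. The overlap is shown for the first pair, with the 43 shared bases in capitals, because reads within it belong to both.
end of mt-Atp8: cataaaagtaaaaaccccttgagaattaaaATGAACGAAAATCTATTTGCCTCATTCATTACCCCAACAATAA
start of mt-Atp6: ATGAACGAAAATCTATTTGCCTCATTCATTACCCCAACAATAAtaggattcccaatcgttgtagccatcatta

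The shared stretch is 43 of the 204 bases of mt-Atp8. The per-kilobase ratio of mt-Atp8 to mt-Atp6 was 0.707 to 2.35 as deposited, highest in HF2 (2.35) and HF3 (1.61), and 0.334 to 0.768 with the copy of mt-Atp6 added.

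Hyperoxia was compared with normoxia gene by gene with edgeR's quasi-likelihood test on the whole table. Of the 37 genes, 21 passed the filter on low counts (13 mRNAs, 2 rRNAs and 6 tRNAs). None was called at an adjusted p under 0.05 for hyperoxia averaged over the sexes, where 0.707% of 19948 genes were called. At an unadjusted p under 0.05 there was 1 (mt-Nd6), and DESeq2 called 0 with 3 at an unadjusted p under 0.05, where it called 2.99% of all genes with an adjusted p. Of all genes, 8.13% were under an unadjusted 0.05 by edgeR and 4.06% by DESeq2. No mitochondrial gene had all hyperoxia libraries above or all below the normoxia libraries, which 2.16% of tested genes had (1.76% all above). The median log2 fold change of the 13 mRNAs was 0.07, with 8 above 0, beside -0.03 for all genes tested. Over the alternative settings that median lay between -0.22 (without HM3) and 0.29 (without HM2), so it had no fixed direction.

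Within sexes edgeR called none of the 21 in females, where 0.0401% of all genes were called, and none in males, where 0.0401% were called. Unadjusted p fell under 0.05 for 1 gene in females (mt-Tm) and 0 in males. Of all 19948 genes tested, 904 in females and 1098 in males were under it. DESeq2 called 0 in both (background 0.494% in females and 0.648% in males), with 1 in females and 0 in males under an unadjusted 0.05. For the difference between the sexes' responses edgeR called none of the 21, with 0% called among all genes. Under an unadjusted 0.05 there were 334 of all 19948 genes and 0 of the 21. DESeq2 called 0 of them there (background 0.00631%), with 1 under an unadjusted 0.05.

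mt-Co1 stood at 1817 (NM1), 1944 (NM2), 2450 (NM3), 2069 (NF1), 3026 (NF2) and 2592 CPM (NF3) in normoxia, with CPM here and below scaled by TMM factors. In hyperoxia it stood at 1636 (HM2), 3253 (HM3), 2719 (HF1), 3156 (HF2) and 2498 CPM (HF3). The groups overlapped, with HM2 the lowest and HM3 the highest of all libraries. The log2 fold change was 0.18 ± 0.22 (SE) with a 95% interval of -0.28 to 0.65. For mt-Rnr1 it was -0.11 ± 0.22 (interval -0.57 to 0.35) and for mt-Rnr2 -0.04 ± 0.22 (interval -0.50 to 0.42). The 8 heavy-strand mRNAs without an identical full-length copy lay between -0.07 (mt-Nd2) and 0.18 (mt-Co1), with mt-Cytb at 0.10, mt-Nd1 at 0.05 and mt-Nd5 at 0.15. The 6 tRNAs tested ran from -0.80 ± 0.78 (mt-Tp) to 0.41 ± 0.83 (mt-Tv).

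**Figure D4:**
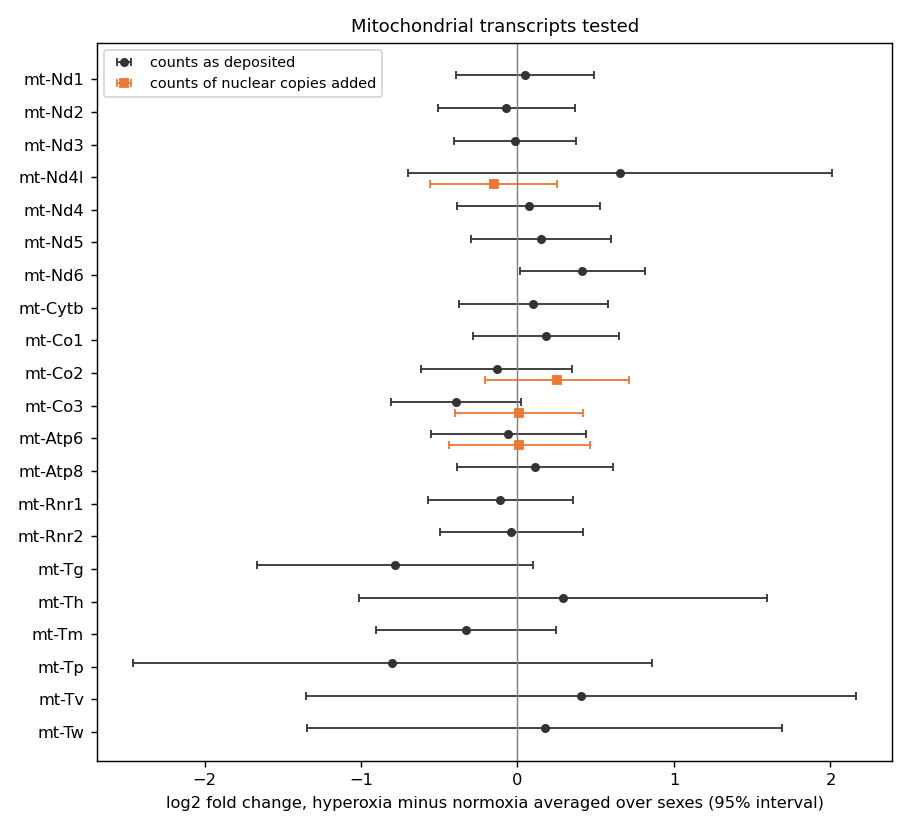
Log2 fold change of the 21 mitochondrial genes tested, hyperoxia minus normoxia averaged over the sexes. The 95% intervals were derived from edgeR's F statistic. Circles are counts as deposited and squares have the nuclear copies added. mt-Nd4l moves from 0.66 to -0.15 and its interval narrows.

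The 4 genes with identical copies changed sign when the copies were added. The log2 fold change of mt-Co2 was -0.13 ± 0.23 (SE) as deposited and 0.25 ± 0.22 with Gm28661 added. That of mt-Co3 was -0.39 ± 0.20 and 0.01 ± 0.19, and that of mt-Atp6 was -0.06 ± 0.23 and 0.01 ± 0.21. mt-Nd4l went from 0.66 ± 0.59 to -0.15 ± 0.19. None of these passed the edgeR test either way (adjusted p from 0.657 to 0.998 as deposited and from 0.920 to 0.999 with the copies).

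mt-Nd6, a complex I subunit, is the single mRNA of the light-strand transcript, and its base composition sets it apart. It holds 28.1% G and 5.97% C, whereas the 12 heavy-strand mRNAs hold 5.88% to 16.1% G and 22.1% to 29.97% C. Its 3′ end meets that of mt-Nd5 on the opposite strand, and the 14 bases annotated to both are shown in capitals on the strand of mt-Nd5.
end of mt-Nd5: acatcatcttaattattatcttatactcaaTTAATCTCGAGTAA
mt-Nd6, other strand: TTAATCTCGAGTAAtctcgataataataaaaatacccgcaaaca

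The sources used here do not say that counting used strand, so reads from mt-Nd6 and from antisense RNA across it cannot be told apart. mt-Nd6 stood at 37.1 (NM1), 42.3 (NM2), 41.3 (NM3), 38.7 (NF1), 52.1 (NF2) and 40.9 CPM (NF3) in normoxia. In hyperoxia it stood at 35.5 (HM2), 67.8 (HM3), 74.0 (HF1), 61.9 (HF2) and 46.2 (HF3). HM2 was the lowest of all libraries and the groups overlapped. The log2 fold change was 0.41 ± 0.19 (SE) by edgeR, with an unadjusted p of 0.0421 and an adjusted p of 0.570, and without HM3 it was 0.15.

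The ratio of mt-Nd6 to the other 12 mRNAs does not depend on the rest of the library. It was 0.00625 (NM1), 0.00695 (NM2), 0.00566 (NM3), 0.00623 (NF1), 0.00564 (NF2) and 0.00542 (NF3) in normoxia. In hyperoxia it was 0.00724 (HM2), 0.00715 (HM3), 0.00967 (HF1), 0.00706 (HF2) and 0.00667 (HF3). Only NM2 lay within the hyperoxia range, above HF3 alone. The log2 ratio was higher in hyperoxia by 0.31, by 0.20 in males and 0.42 in females (exact permutation p = 0.01, adjusted p = 0.05 over 5 ratios, which does not go under the threshold of 0.05). Without HF1, the highest library, the difference was 0.23 (adjusted p = 0.10 by the same exact test), and with the nuclear copies added it was 0.29.

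**Figure D5:**
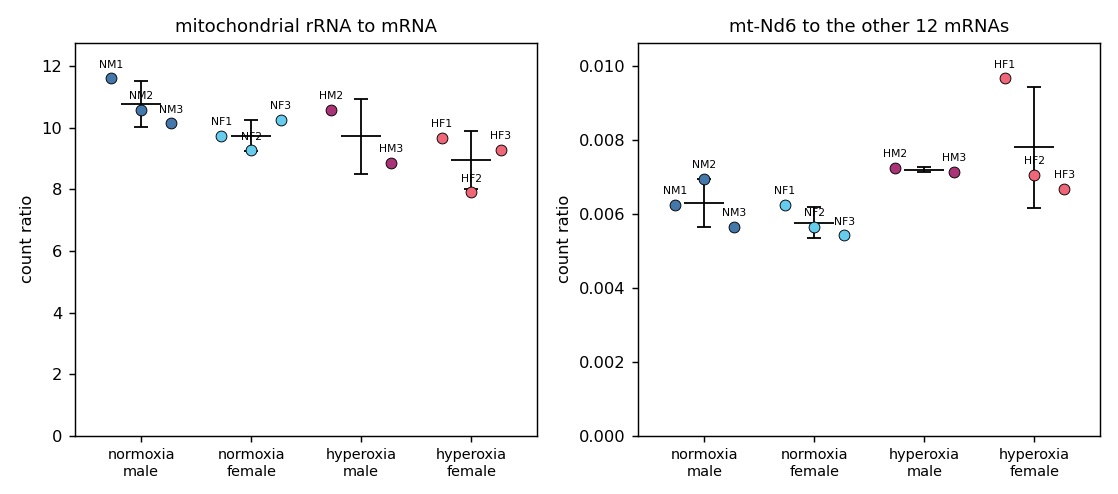
Count ratios within the mitochondrial transcripts for each library, rRNA to mRNA on the left and mt-Nd6 to the other 12 mRNAs on the right. Points are libraries by group, and bars show mean and SD. HF1 stands apart at 0.00967 on the right, where the other hyperoxia libraries lie between 0.00667 and 0.00724.

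The 22 tRNAs were barely represented, with 5113 counts in all over the 11 libraries and 0.000695% to 0.00304% of a library. Mature tRNAs are short, folded and modified, and per the labels some libraries had fragments under 250 bp removed, without saying which. So these counts do not show how the tRNA pool is made up. mt-Tm, the methionine tRNA, held 66.7% of the tRNA counts and mt-Tg, the glycine tRNA, 24.1%. Both are shown with the anticodon in capitals, found as the middle of a 7-base loop closed by 5 paired bases.
mt-Tm: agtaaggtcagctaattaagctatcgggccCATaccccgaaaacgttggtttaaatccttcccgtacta
mt-Tg: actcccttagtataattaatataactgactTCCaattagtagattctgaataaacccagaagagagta

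Of the 22 tRNAs, 6 had a count in every library (mt-Tm, mt-Tg, mt-Th, mt-Tw, mt-Tv and mt-Tp), and 11 never exceeded 3 counts. mt-Tc, mt-Tq, mt-Tr and mt-Ts2 had 0 counts in all 11 libraries, which allows up to 3 counts, or 9.21e-06% to 1.66e-05% of a library. Such floors cover counting error only, as reads are not independent molecules. The other 5 tRNAs reached 4 to 12 counts in at least 1 library, among them mt-Ts1 with 0 to 10 and mt-Tk with 0 to 12.

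The tRNA share of counts was 0.00250% (NM1), 0.00304% (NM2), 0.00153% (NM3), 0.00158% (NF1), 0.00136% (NF2) and 0.00179% (NF3) in normoxia. In hyperoxia it was 0.00227% (HM2), 0.00233% (HM3), 0.00172% (HF1), 0.000695% (HF2) and 0.000845% (HF3). HF2 and HF3, which are among the 4 libraries with most genes detected, were the lowest. Hyperoxia differed from normoxia by -0.000273 percentage points (exact permutation p = 0.445, adjusted p = 0.585). Of the tRNAs, 8 lie in the light-strand transcript, and the ratio of their counts to those of the other 14 was 0.0201 to 0.0455 in normoxia and 0.0252 to 0.0670 in hyperoxia, highest in HF2 (0.0670) and HF3 (0.0615). The log2 ratio differed by 0.41, hyperoxia minus normoxia, with overlapping groups (exact permutation p = 0.235, adjusted p = 0.245).

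The tRNA share differed between females and males by -0.000996 percentage points, with overlap through NM3, and this did not pass the adjustment (exact permutation p = 0.035, adjusted p = 0.14 over 4 shares). Without NM3 the difference was -0.00120 (adjusted p = 0.04 by the same exact test). The log2 ratio of tRNA to mRNA differed by -1.15 (exact permutation p = 0.045, adjusted p = 0.225).

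Between the sexes edgeR called none of the 21 genes, with 0.0251% called among all genes. At an unadjusted p under 0.05 there were 2 of the 21 (mt-Tg and mt-Tm), beside 3.27% of all genes tested. mt-Tg stood at 11.5 (NM1), 13.8 (NM2), 2.63 (NM3), 6.62 (HM2) and 3.11 CPM (HM3) in males. In females it was 2.74 (NF1), 1.60 (NF2), 3.88 (NF3), 2.85 (HF1), 0.94 (HF2) and 1.51 CPM (HF3). The ranges overlapped, since NM3 and HM3 lay within the female range. By edgeR the log2 difference, female minus male, was -1.61 ± 0.41 (SE), with an adjusted p of 0.610. DESeq2 called this gene with an adjusted p of 0.0309, and called 0.139% of all genes. It was also called by edgeR without the filter on low counts.

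mt-Tm had a log2 difference, female minus male, of -0.65 ± 0.27 (SE; edgeR adjusted p = 0.994). Its level was 9.39 to 18.3 CPM in males and 4.02 to 12.98 in females, lowest in HF3 (4.02) and HF2 (4.20).

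The mRNA share differed by 0.128 percentage points, female minus male, and the rRNA share by 0.668, both within the spread between libraries (exact permutation p = 0.25 and p = 0.40, adjusted p = 0.40 for each). The rRNA difference turned to -0.136 without HM2. In the gene-wise fit 10 of 13 mRNAs were above 0 between the sexes with a median of 0.17, beside 0.01 for all genes. That median lay between -0.02 and 0.46 over the alternative settings.

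The nuclear genes that act on mitochondrial transcripts were taken by function, with the edgeR test over all genes for hyperoxia averaged over the sexes. None of 12 genes for transcription of mitochondrial DNA passed (median log2 fold change -0.02). Neither edgeR nor DESeq2 had any of them under an unadjusted 0.05, and DESeq2 called 0. Polrmt, the polymerase, had 0.06 ± 0.22 (SE), Tfam, which packs and activates the genome, 0.17 ± 0.14, Tfb2m 0.18 ± 0.16, the elongation factor Tefm -0.49 ± 0.26, the termination factor family members Mterf3 0.07 ± 0.18 and Mterf2 0.72 ± 0.41. None of 18 genes of RNA processing passed (median -0.01), with 1 under an unadjusted 0.05 (Mrm1). Values included Elac2, which cuts tRNA 3′ ends (0.00 ± 0.21), Trmt10c, a subunit of mitochondrial RNase P (0.11 ± 0.15), Nsun4 (0.21 ± 0.21) and Mrm1, an rRNA methyltransferase (-0.44 ± 0.19). DESeq2 called 0, with 1 under an unadjusted 0.05.

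None of 17 genes of mRNA stability and polyadenylation passed (median 0.02), with 1 under an unadjusted 0.05 (Fastkd3), and DESeq2 called 0 with 1 under an unadjusted 0.05. Lrpprc and Slirp, which together stabilise mitochondrial mRNAs, had 0.06 ± 0.21 and 0.04 ± 0.19. The poly(A) polymerase Mtpap had 0.13 ± 0.15, the polynucleotide phosphorylase Pnpt1 -0.03 ± 0.14, Fastkd3 0.49 ± 0.18 (adjusted p = 0.372) and Angel2 -0.28 ± 0.17. None of 16 genes of mitochondrial DNA replication passed (median 0.05), with the polymerase subunit Polg at 0.09 ± 0.15, the helicase Twnk at 0.09 ± 0.17, the nuclease Exog at 0.20 ± 0.17 and the nucleoside kinase Dguok at -0.33 ± 0.16. None of 13 regulators of mitochondrial biogenesis passed (median -0.02), including the coactivator Ppargc1b (-0.03 ± 0.25) and the transcription factors Nrf1 (0.21 ± 0.17) and Esrra (-0.22 ± 0.14). In these 2 lists 0 genes had an unadjusted p under 0.05 by edgeR or by DESeq2, which called 0.

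Of 79 proteins of the mitochondrial ribosome, whose rRNAs are mt-Rnr1 and mt-Rnr2, 1 fell and none rose (median -0.12, with 18 above 0), where 0.707% of all genes tested were called, so the count is near the background. It was Mrps6, a small subunit protein, at 36.1 (NM1), 22.9 (NM2), 27.4 (NM3), 21.9 (NF1), 21.4 (NF2) and 27.1 CPM (NF3) in normoxia. In hyperoxia it stood at 17.3 (HM2), 12.4 (HM3), 16.5 (HF1), 12.3 (HF2) and 15.9 CPM (HF3). All 5 hyperoxia libraries lay below all 6 normoxia libraries. Such separation, above or below, was seen in 2.16% of all genes tested. Its log2 fold change was -0.80 ± 0.17 (SE; edgeR adjusted p = 0.0377), and it was not called without NM1, NF1, NF2, HM2, HM3, HF1, HF2 or HF3, nor without the 4 libraries with most genes detected (adjusted p up to 0.400, without HM3). In GENCODE M21, 159 of its 1533 exon bases also belong to Slc5a3 on the same strand, which had -0.47 ± 0.16 (adjusted p = 0.280). DESeq2 called the same gene alone in the list. Mrpl45, a large subunit protein, had 0.15 ± 0.17.

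None of 18 genes of the mitochondrial stress response passed (median -0.18), with 4 under an unadjusted 0.05 (Atf5, Ddit3, Asns and Atf4), while DESeq2 called 1 (Atf5) with 4 under an unadjusted 0.05. Of all genes tested, 8.13% were under an unadjusted 0.05 by edgeR and 4.06% by DESeq2, which called 2.99% of the genes it gave an adjusted p. Atf5, a transcription factor of the mitochondrial unfolded protein response, was lowest in p. It stood at 26.1 (NM1), 24.5 (NM2), 7.28 (NM3), 22.2 (NF1), 25.0 (NF2) and 20.3 CPM (NF3) in normoxia and at 9.30 (HM2), 8.79 (HM3), 13.3 (HF1), 7.19 (HF2) and 6.21 CPM (HF3) in hyperoxia. NM3 alone of the normoxia libraries lay within the hyperoxia range. The log2 fold change was -1.22 ± 0.28 (edgeR adjusted p = 0.0685). It was called without NM3 (-1.42, adjusted p = 0.00264), without HF1, without the 4 libraries with most genes detected, with the replicate number as a block, without the filter on low counts and by DESeq2. Ddit3, a stress-induced transcription factor, had -0.62 ± 0.19 (adjusted p = 0.188) and Psat1, an enzyme of serine synthesis, 0.28 ± 0.16.

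The nuclear subunits that join the mitochondrial ones in the respiratory complexes are given here only beside them. None passed in complex I (36 genes, median -0.17), complex III (9, -0.14), complex IV (11, -0.23) or complex V (15, -0.12), nor in complex II, which has no mitochondrially encoded subunit (4, -0.02). Examples are Ndufa1 (-0.33 ± 0.16) and Ndufs1 (0.12 ± 0.17) of complex I, Uqcrh (-0.51 ± 0.24) and Uqcrb (0.02 ± 0.17) of complex III, Cox7a2 (-0.34 ± 0.20) and Cox5a (0.06 ± 0.17) of complex IV, Atp5e (-0.47 ± 0.26) of complex V, and Sdha (0.08 ± 0.23) and Sdhb (-0.05 ± 0.18) of complex II. None of these 75 genes had an unadjusted p under 0.05 by edgeR, and DESeq2 called 0, with 1 of complex I and 1 of complex III under an unadjusted 0.05.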

How the data were processed

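RNA of sorted alveolar macrophages from 11 samples was sequenced, per the labels, after cDNA synthesis with a SMART-Seq low-input kit. The labels also name the adapter of a different kit, so how cDNA was primed is not clear. The first 8 bases were molecular identifiers and were trimmed, and whether they served to collapse duplicate reads is not given in the sources used here. The submitters' processing notes name the build mm39, the aligner STAR 2.7.9, the quantifier Salmon 1.10.1, the trimmer Trim Galore 0.6.7, and DESeq2 1.42 under R 4.3.2, without the role of each. The authors deposited 1 table of whole-number counts per gene and library, not normalized, and 51884 of 57180 identifiers had a symbol in the supplied gene table. No coordinates are given, because the reference transcripts used for sequences (GENCODE M21) are of another build.

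Counts were tested with edgeR 4.0.16 (R 4.3.3) using TMM scaling, filterByExpr, robust quasi-likelihood fits with 1 mean per group over all 11 libraries, and Benjamini-Hochberg adjustment over all genes tested, with 0.05 as the threshold. A gene counted as changed when its adjusted p was below that. Shares and log2 ratios, 1 value per library, were compared by exact two-sided permutation tests over 200 arrangements within sex or oxygen group, whose smallest p was 0.005, with adjustment over 4 shares or 5 ratios. Within 1 sex, 3 against 3 or 3 against 2 libraries cannot go below 0.10, so no such test was made. Correlations used 100000 permutations. Scripts were tested on simulated data. Alternatives were RLE scaling, DESeq2 1.42.0, no filter on low counts, other library sizes and denominators, a replicate block, leaving out libraries, and adding the nuclear copies, the last chosen after the copies' counts were seen. Named nuclear genes were those past the test, that of smallest p in each direction of each list, and 16 named regulators; Asns and Atf4 were named after their values were seen. The members and lists were chosen with earlier results of these data known.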

Additional observations from a re-analysis of the deposited data

Results flagged for a closer look

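Of 18 sets of library values checked for a library apart from its group, 1 stood out, where chance alone gives about 1 in 20. In the log2 ratio of mt-Nd6 to the other 12 mRNAs, HF1 was at -6.69, and the other 4 hyperoxia libraries lay between -7.23 and -7.11. The gap was large for a group of 5. Why HF1 differed was not tested.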

How the results depend on the processing

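The number of mitochondrial genes called stayed at 0 for hyperoxia (averaged, in males, in females) and for the interaction under all 19 alternatives. Between the sexes it was 1 (mt-Tg) with DESeq2 and 1 without the filter on low counts, and 0 otherwise. The labels do not say what replicate numbers share. Deviations of same-numbered libraries correlated above 0.1 in 7 of 15 pairs (-0.168 to 0.574): in 3 of 3 pairs of normoxia males with normoxia females, 7 of 9 pairs without hyperoxia males, and 0 of 6 with them, whose 2 libraries deviate as mirror images. Correlations of differently numbered libraries ran from -0.612 (NM3 with HF1) to 0.512 (NM2 with HF1). Pairing was therefore not taken as given for the contrasts tested. With the replicate number as a block, 0 mitochondrial genes were called. Of all genes, the replicate block gave 256 calls in the averaged contrast (141 without it), 23 in females, 21 in males, 0 for the interaction and 9 between the sexes. The averaged count was 429 with DESeq2 and 36 to 195 leaving out 1 library. In females it was 8 (DESeq2 80, leaving out 1 library 0 to 24), in males 8 (87, 0 to 19), for the interaction 0 (3, 0 to 1) and between the sexes 5 (34, 5 to 14).

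Leaving out each library in turn, the hyperoxia difference in share ranged from -0.356 to 1.48 percentage points for all 37 genes and from -0.365 to 1.24 for rRNAs. The female minus male difference ranged from -0.124 to 1.71 for all 37, -0.136 to 1.47 for rRNAs and -0.00120 to -0.000825 for tRNAs. For log2 ratios between the sexes it ranged from -0.0747 to 0.0256 for mt-Rnr2 to mt-Rnr1 and from -0.0954 to 0.0385 for mt-Nd6. The mt-Nd6 ratio in hyperoxia ranged from 0.226 to 0.360. Against nuclear protein-coding counts, the hyperoxia difference was -0.141 for all 37 genes and -0.223 for rRNAs, and without the largest nuclear identifier -0.0234 for rRNAs. The mt-Nd6 ratio in hyperoxia, permuted without strata, was 0.318 and passed (adjusted p = 0.0325). Between the sexes that ratio was 0.00699 without strata and 0.137 without the 4 libraries with most genes, where mt-Rnr2 to mt-Rnr1 was 0.0534.

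Without those 4 libraries the log2 fold changes of mt-Rnr2 (0.072), mt-Tm (0.0090) and mt-Atp6 (0.12) turned positive. With nuclear copies added mt-Co2 (0.25), mt-Atp6 (0.011), mt-Co3 (0.011) and mt-Nd4l (-0.15) changed sign. Leaving out 1 library turned the sign of these genes: mt-Rnr1 (-0.34 to 0.081), mt-Rnr2 (-0.20 to 0.12), mt-Nd1 (-0.23 to 0.26), mt-Nd2 (-0.33 to 0.14), mt-Nd3 (-0.10 to 0.11), mt-Nd4 (-0.21 to 0.29), mt-Nd5 (-0.11 to 0.36), mt-Cytb (-0.22 to 0.34), mt-Co1 (-0.10 to 0.40), mt-Co2 (-0.33 to 0.043), mt-Atp6 (-0.27 to 0.12), mt-Atp8 (-0.31 to 0.39) and mt-Tw (-0.16 to 0.43). Apart from the copies, denominators and omitted libraries, whose construction differs, the cause was not tested. With 2 hyperoxia male libraries that lie far apart, and tRNAs at few counts, intervals are wide.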

Other observations

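Nuclear genes for respiratory chain subunits and mitochondrial ribosomal proteins had log2 differences below 0, female minus male averaged over the oxygen groups, in nearly all members, and edgeR called none of them, where 0.0251% of all genes were called. Of the nuclear subunits, 1 of 36 in complex I, 0 of 9 in complex III, 0 of 11 in complex IV and 0 of 15 in complex V had a log2 difference above 0, as did 4 of 79 mitochondrial ribosomal proteins, beside 10294 of all 19948 genes tested. The median log2 differences were -0.24, -0.30, -0.30, -0.28 and -0.22. Over the alternative settings they lay between -0.34 and -0.14 for complex I, -0.41 and -0.17 for complex III, -0.43 and -0.17 for complex IV, -0.39 and -0.14 for complex V, and -0.30 and -0.11 for the ribosomal proteins. At an unadjusted p under 0.05 edgeR had 3, 0, 1, 2 and 5 of them, and DESeq2 called 0 with 1, 0, 0, 2 and 4. Of all genes, 3.27% were under an unadjusted 0.05 between the sexes by edgeR and 1.98% by DESeq2. The 13 mitochondrially encoded mRNAs had a median of 0.17 in the same comparison. The members of a list share the libraries, so their common sign is not independent evidence.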
